A study of Mus musculus with 4 samples.

Results

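The 10 genes described here encode NRF2, its inhibitor KEAP1 and 8 enzymes of the antioxidant response: *Nfe2l2*, *Keap1*, *Hmox1*, *Nqo1*, *Gclc*, *Gclm*, *Txnrd1*, *Sod1*, *Sod2* and *Cat*. They were taken by name from 21938 protein-coding genes of the GENCODE M21 annotation, with earlier results of these data known. Their counts are therefore a description and no test of the set. They were examined in ATAC-seq of mouse hearts at embryonic day 9.5 (E9.5), an assay in which the Tn5 transposase cuts open chromatin and inserts sequencing adapters. The hearts were wild type (WT) or *Smyd1-KO*, a whole-body null for the muscle histone methyltransferase SMYD1. There were 2 libraries per genotype, each from a pool of 4 whole hearts with 40000 viable cells taken. Each peak that lay in a gene body or within 10 kb of one of its transcription start sites (TSSs) was counted, and 13 of the 25745 *Smyd1-KO*-enriched peaks and 0 of the 106 WT-enriched peaks lay at these genes.

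NRF2, the product of *Nfe2l2*, is a transcription factor that pairs with small MAF proteins and binds antioxidant response elements (AREs) near genes for detoxification and redox enzymes. KEAP1 holds NRF2 in the cytoplasm and hands it to a CUL3 ubiquitin ligase for degradation, until oxidants or electrophiles modify KEAP1 and NRF2 escapes. The target enzymes break down heme, reduce quinones, make glutathione and keep thioredoxin reduced. Superoxide dismutases and catalase remove superoxide and hydrogen peroxide.

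Of the 10 genes, 9 had at least 1 *Smyd1-KO*-enriched peak, and *Nqo1* alone had none. By the same rule 62.6% of all protein-coding genes had one. *Nfe2l2* had 3 peaks, *Gclc* and *Sod2* had 2 each, and *Keap1*, *Hmox1*, *Gclm*, *Txnrd1*, *Sod1* and *Cat* had 1 each. The 3 genes with several peaks compare with 29.4% of protein-coding genes that had 2 or more. A peak lay within 1 kb of a TSS at 8 of the 10 genes, against 48.1% of protein-coding genes, and the same 8 genes had one within 3 kb, against 51.2%. A peak covered a TSS at 5 of them, *Nfe2l2*, *Keap1*, *Txnrd1*, *Sod2* and *Cat*, against 27.8% of protein-coding genes. No WT-enriched peak lay at any of the 10, where 0.155% of protein-coding genes had one, and the nearest lay between 4.28 Mb (*Txnrd1*) and 87.3 Mb (*Nqo1*) away. Nearly all differential peaks of the series, 25745 against 106, have this direction, so the direction is no property of these genes. The median length of the members was 27.2 kb, against 17.4 kb for all protein-coding genes, and *Sod1*, *Hmox1*, *Keap1* and *Nqo1* were shorter than the latter.

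**Figure D1:**
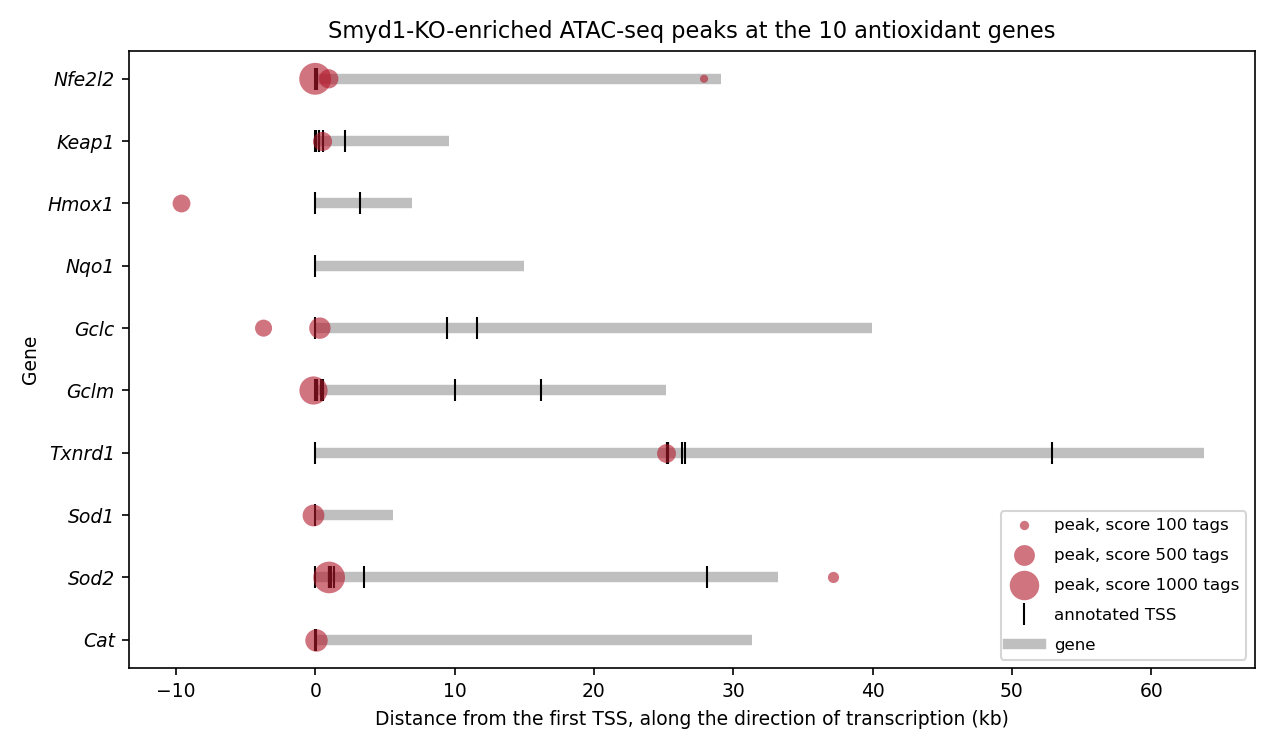
Position of the *Smyd1-KO*-enriched peaks at the 10 genes, in kb from each gene's first TSS along the direction of transcription. Grey bars are genes, black ticks are annotated TSSs and the area of each red circle is proportional to the score of the peak in tags; peaks sit at or beside the first TSS of most genes, at an internal TSS of *Txnrd1* and 9594 bp upstream of *Hmox1*, and *Nqo1* has none.

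The authors pooled the libraries of a genotype before calling peaks and kept peaks with at least a 2-fold difference in tags between the genotypes. A listed peak is therefore a place where the pooled *Smyd1-KO* tags were at least 2-fold higher, and its score is read here as the tags in the pooled *Smyd1-KO* libraries, not as a fold change. All 25745 *Smyd1-KO*-enriched scores were multiples of 0.5, against 13 of the 106 WT-enriched ones, so the scores are not plain whole counts, and their scaling is not given in the sources used here. The word tags below is used in this sense. The tags of WT hearts at the same place were not analysed here. With 1 pooled list per genotype there is no spread between replicates, so no test over samples was possible and the values are given as a description. The scores of the *Smyd1-KO*-enriched list ran from 24.5 to 18591 tags with a median of 180.5, and those of the WT-enriched list from 25.7 to 941.3 with a median of 36.35. The *Smyd1* gene itself, the deleted gene, had 0 WT-enriched peaks and 2 *Smyd1-KO*-enriched peaks, 0 of them within 3 kb of a TSS, so the lists do not check the genotype. Among cell type markers, a *Smyd1-KO*-enriched peak was found at 8 of 8 cardiomyocyte, 4 of 7 endothelial, 2 of 6 erythroid and 2 of 4 epicardial genes, against 62.6% of protein-coding genes. Within 1 kb of a TSS the counts were 7 of 8, 1 of 7, 0 of 6 and 2 of 4, against 48.1%, and a WT-enriched peak was found at 0 genes of each list. The part of cell makeup in the members' peaks was not tested. In whole-heart pools, more cells of a type and more open chromatin per cell cannot be told apart.

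*Nfe2l2* (ENSMUSG00000015839.6, chr2:75675513-75704641, minus strand) had the highest-scoring peak of all 13, with 1171 tags. It lay at chr2:75704573-75704721 and covered the TSS of the coding transcript, and its score was above that of 98.6% of the *Smyd1-KO*-enriched list and of 98.0% of the peaks that cover a TSS. A second peak, with 427.5 tags, lay at chr2:75703598-75703746, in an intron 743 bp downstream of the nearest *Nfe2l2* TSS. The third peak had 77 tags, the lowest score of the 13. It overlapped a coding exon at chr2:75676660-75676808, at the far end of the gene and 27.7 kb from the nearest *Nfe2l2* TSS, so that it was counted only because it lay in the gene body. The signal at *Nfe2l2* thus sat at its promoter, with 2 of its 3 peaks within 1 kb of a TSS. The stretch of the highest peak that lies upstream of the first exon is shown to give the promoter sequence, on the gene strand, from chr2:75704642-75704721 (mm10), with capitals on a match to the GGGCGG box read by SP1 and related factors.

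*Nfe2l2* promoter: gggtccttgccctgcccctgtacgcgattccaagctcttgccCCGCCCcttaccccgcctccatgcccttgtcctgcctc

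*Keap1* (chr9:21229730-21239361, minus strand) had 1 peak of 422.5 tags at chr9:21238791-21238939. It lay in the 5′ UTR and covered one of the 6 annotated TSSs of the gene. Its score was above that of 48.6% of the peaks that cover a TSS, near the middle of that class. A TSS of *S1pr5* also lay within 10 kb of it. The peak held 1 match to the ARE core TGACNNNGC, the sequence TGACTAAGC at chr9:21238840-21238848. Both the factor and its inhibitor thus had a promoter peak, and the score at *Nfe2l2* was the higher by 748.5 tags.

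*Hmox1* (chr8:75093621-75100589, plus strand) encodes heme oxygenase 1, which opens the heme ring and yields biliverdin, carbon monoxide and iron. The mouse gene is known to be induced through distal upstream enhancers that hold several AREs, at which the repressor BACH1 and NRF2 compete. Neither *Hmox1* TSS had a *Smyd1-KO*-enriched peak within 3 kb. Its 1 peak, with 367.5 tags, lay at chr8:75083879-75084027, 9594 bp upstream of the first TSS and just inside the 10 kb window. *Hmox1* was the protein-coding gene with the nearest TSS, and the noncoding gene *Gm2059* had a TSS closer by, at 4738 bp. The score was above that of 94.3% of the peaks that lie 3 to 10 kb from a TSS. The whole peak is printed because it held 3 ARE core matches (capitals, read on the other strand as TGACTCAGC).

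*Hmox1* upstream peak: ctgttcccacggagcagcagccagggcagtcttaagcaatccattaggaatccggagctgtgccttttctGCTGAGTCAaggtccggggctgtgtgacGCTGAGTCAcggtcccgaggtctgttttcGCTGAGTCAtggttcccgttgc

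Each capital run of 9 bases is an ARE core that also holds the AP-1 site TGAGTCA, so the matches of the motifs overlap. The runs begin at chr8 positions 75083949, 75083977 and 75084006, that is, 28 and 29 bp apart. Of the 25745 *Smyd1-KO*-enriched peaks, 2115 held at least 1 ARE core, 94 held at least 2 and 5 held at least 3, or 0.0194%. The *Hmox1* peak was the 1 peak in the list with at least 3 ARE cores and at least 3 AP-1 sites. This count was made after the 3 matches had been seen, and it describes letters, not bound protein.

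*Nqo1* (chr8:107388225-107403206, minus strand) encodes a quinone reductase and is a classic target gene of NRF2. It had no *Smyd1-KO*-enriched peak in its body or within 10 kb of its 1 TSS. The nearest one lay 21.8 kb away at chr8:107425020-107425168, with 598.5 tags, and covered a TSS of *Nob1*. The lists hold only peaks that passed the 2-fold rule, so whether chromatin at *Nqo1* was open alike in both genotypes or not called open in either was not tested. The RefSeq promoter sequence upstream of the first exon, chr8:107403207-107403455 (GRCm38), is shown because *Nqo1* was the member without any listed peak. This stretch held 2 GGGCGG boxes (capitals, either strand) and no ARE core. Sequence farther upstream of *Nqo1* was not searched, so whether an ARE core lies there was not tested.

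*Nqo1* promoter: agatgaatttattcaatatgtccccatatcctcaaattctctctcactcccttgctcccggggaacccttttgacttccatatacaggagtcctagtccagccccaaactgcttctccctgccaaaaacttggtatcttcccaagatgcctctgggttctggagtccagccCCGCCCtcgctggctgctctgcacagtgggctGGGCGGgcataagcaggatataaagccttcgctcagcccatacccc

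*Gclc* and *Gclm* encode the catalytic and the modifier subunit of glutamate-cysteine ligase, the rate-limiting enzyme of glutathione synthesis. Both had promoter peaks. At *Gclm* (chr3:122245557-122270732, plus strand) the 1 peak had 916.5 tags and lay at chr3:122245319-122245467, ending 90 bp upstream of the first TSS. It scored above 95.9% of the list and above 89.8% of the peaks that lie up to 1 kb from a TSS. It held 1 ARE core, TGACGGTGC on the minus strand at chr3:122245423-122245431, which is in capitals in the peak sequence on the gene strand.

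*Gclm* promoter peak: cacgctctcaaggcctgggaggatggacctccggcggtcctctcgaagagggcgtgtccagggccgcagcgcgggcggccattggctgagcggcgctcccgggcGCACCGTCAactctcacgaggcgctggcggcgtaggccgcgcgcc

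At *Gclc* (chr9:77754535-77794485, plus strand) the higher of 2 peaks had 528.5 tags and lay at chr9:77754793-77754941, beginning 258 bp downstream of the first TSS, over the 5′ UTR and a coding exon. The other, with 335.5 tags, lay 3637 bp upstream at chr9:77750750-77750898. The upstream peak had the highest GC content of the 13, at 76.5%, and scored above 93.2% of the peaks 3 to 10 kb from a TSS. Neither *Gclc* peak held an ARE core. The promoter score was thus lower for the catalytic subunit than for the modifier subunit, 528.5 against 916.5 tags, and the summed score of the peaks was 864 against 916.5.

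*Txnrd1* (chr10:82833951-82897712, plus strand) encodes the cytosolic thioredoxin reductase, which keeps thioredoxin in its reduced form. The longest gene of the set, at 63.8 kb with 8 annotated TSSs, it had a single peak. The peak had 410.5 tags and lay at chr10:82859054-82859202, where it covered the TSS at position 82859179, an internal start. Its centre was 25.2 kb downstream of the first TSS, at which no peak lay. A TSS of *Eid3* also lay within 10 kb of it. The score was above that of 46.7% of the peaks that cover a TSS. The part of the peak upstream of the exon, chr10:82859054-82859178, is shown because it held 1 ARE core (capitals, TGACAAAGC on the minus strand at chr10:82859114-82859122).

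*Txnrd1* internal promoter peak: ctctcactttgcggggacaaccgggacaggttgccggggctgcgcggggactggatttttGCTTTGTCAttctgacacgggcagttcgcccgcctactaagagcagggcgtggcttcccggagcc

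*Sod1* and *Sod2* encode the cytosolic copper-zinc and the mitochondrial manganese superoxide dismutase, which turn superoxide into hydrogen peroxide. At *Sod1* (chr16:90220754-90226329, plus strand) the 1 peak had 547 tags and lay at chr16:90220552-90220700, ending 54 bp upstream of the TSS. A TSS of *Scaf4* also lay within 10 kb of it. The peak held 4 GGGCGG boxes, more than any other peak of the set, which are in capitals below on either strand.

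*Sod1* promoter peak: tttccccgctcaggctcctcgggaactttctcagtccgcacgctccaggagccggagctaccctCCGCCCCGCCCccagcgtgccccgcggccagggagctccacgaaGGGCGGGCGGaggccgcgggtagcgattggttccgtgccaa

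At *Sod2* (chr17:13006846-13040063, plus strand) the higher peak had 1155.5 tags, within 15.5 tags of the *Nfe2l2* promoter peak. It lay at chr17:13007769-13007917 and covered the TSS at position 13007817, and it scored above 98.5% of the list and 97.8% of its class. A second peak of 144.5 tags lay downstream of the gene at chr17:13043969-13044117. It was counted only through a noncoding *Sod2* transcript whose TSS was 8993 bp away, while a coding *Sod2* TSS was 36.2 kb away and a *Gpr31b* TSS was nearer, at 8179 bp. Of its 36-base words, 60.5% occurred more than once in the genome, and it was the only 1 of the 13 peaks with any repeated word. The mitochondrial enzyme thus had the higher promoter score of the pair, 1155.5 against 547 tags.

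*Cat* (chr2:103453849-103485160, minus strand) encodes catalase, the peroxisomal enzyme that splits hydrogen peroxide into water and oxygen. It had 1 peak of 577 tags at chr2:103485035-103485183, which covered the TSS and reached into the first coding exon. It scored above 71.0% of the peaks that cover a TSS.

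Across the set the 13 scores ran from 77 to 1171 tags with a median of 427.5 and quartiles of 367.5 and 577, and 11 of the 13 were at or above the list median of 180.5. Scores fell with distance from a TSS in the whole list. The median was 430 tags for peaks covering a TSS, 360 for those up to 1 kb away, 128 at 1 to 3 kb, 102.5 at 3 to 10 kb and 81 beyond. Of the 13, 5 covered a TSS of their gene, 4 more lay within 1 kb, 3 lay 1 to 10 kb away and 1 beyond. Within their own distance class, 3 of the 5 covering peaks, 4 of the 4 within 1 kb, 3 of the 3 at 3 to 10 kb and 0 of the 1 beyond were above the class median. The peaks that stood highest in their class were those of *Nfe2l2* and *Sod2* at the TSS and of *Hmox1* and *Gclc* upstream. Taking each gene's best peak within 1 kb of a TSS, the 8 genes had a median of 562 tags, against 469.5 for all protein-coding genes with such a peak (quartiles 305.5 and 699.5). By their best peak, *Nfe2l2* (96.5%), *Sod2* (96.2%) and *Gclm* (89.1%) stood above most protein-coding genes with a peak. *Cat* (65.9%), *Sod1* (62.9%) and *Gclc* (60.7%) were somewhat above the middle. *Keap1* (47.0%), *Txnrd1* (45.6%) and *Hmox1* (39.7%) were below it. This ranking takes the best peak at any distance. The *Hmox1* peak, 9594 bp upstream, is there set against promoter peaks, while it scored above 94.3% of its own distance class.

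**Figure D2:**
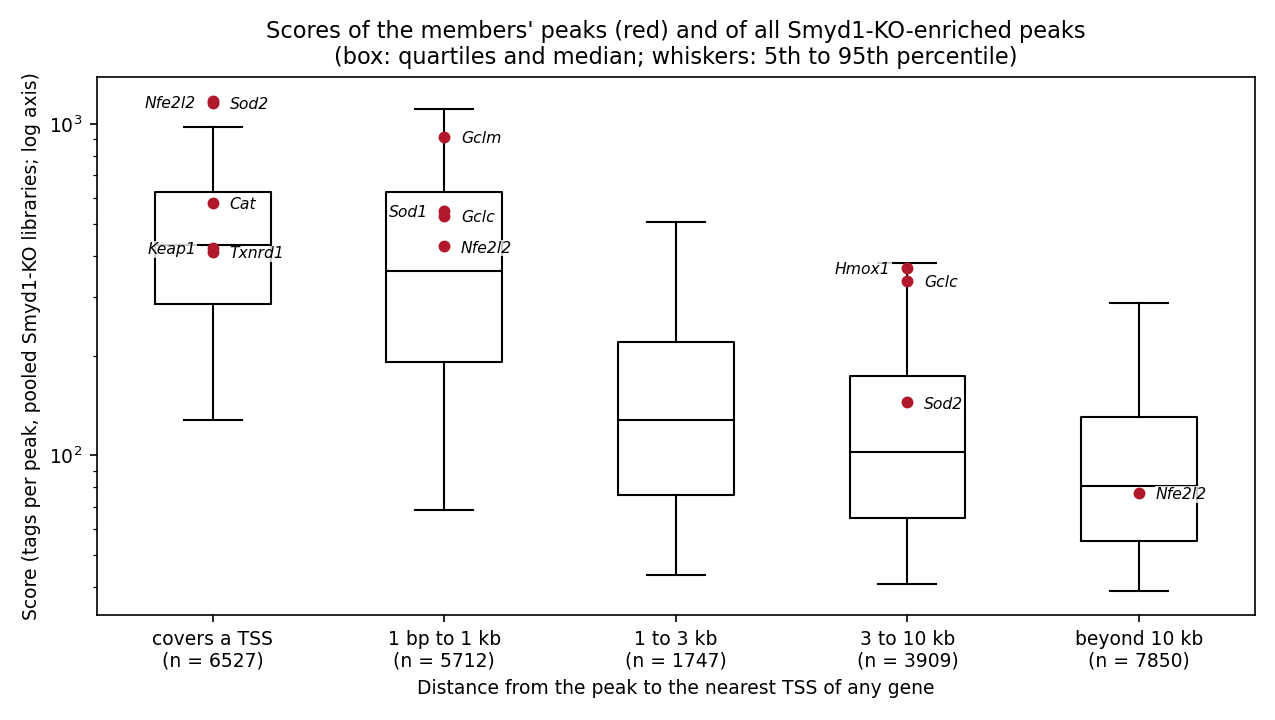
Scores of the 13 peaks (red points, named by gene) and of all *Smyd1-KO*-enriched peaks (boxes), in tags on a log axis, by distance to the nearest TSS of any gene. Boxes give the quartiles and median and whiskers the 5th and 95th percentile; *Nfe2l2* (1171) and *Sod2* (1155.5) lie above the upper whisker of the peaks that cover a TSS, while *Keap1* (422.5) and *Txnrd1* (410.5) lie just under its median of 430.

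The wider antioxidant network was read from 51 further genes in 6 groups, also chosen with earlier results of these data known. Of these, 43 (84.3%) had a *Smyd1-KO*-enriched peak in the body or within 10 kb of a TSS, 39 (76.5%) had one within 1 kb and 29 (56.9%) had a TSS covered, and 0 had a WT-enriched peak. The backgrounds are those above, 62.6%, 48.1% and 27.8%. Best peaks within 1 kb ran from 155 to 1161 tags with a median of 536. Among regulators of NRF2 and related factors, 9 of 11 had a promoter peak, led by *Nfe2l1*, a related transcription factor of the endoplasmic reticulum, with 1161 tags, near the 1171 of *Nfe2l2*. *Nfe2l3* and *Nfe2*, the latter a factor of blood cells, had none. Of the glutathione genes, 7 of 14 had a promoter peak, near the 48.1% of all protein-coding genes. They were led by *Gpx4*, which reduces lipid peroxides, with 1157 tags, and *Gpx7*, *Gpx8*, *Glrx2* and *Mgst1* had no peak. Of the thioredoxin and peroxiredoxin genes, 10 of 12 had a promoter peak, led by thioredoxin itself (*Txn1*, 1059.5 tags). *Txnrd2*, the mitochondrial reductase, had none, unlike *Txnrd1*. Of the remaining superoxide genes, the copper chaperone *Ccs* had a promoter peak of 581 tags and the extracellular dismutase *Sod3* had no peak. All 6 genes of NADPH supply, led by *Pgd* of the pentose phosphate pathway (821 tags), and all 6 genes of heme and iron handling, led by the biliverdin reductase *Blvrb* (1074.5 tags), had a promoter peak. These include *Hmox2*, the constitutive heme oxygenase, with a best promoter score of 504 tags, whereas the 1 peak of *Hmox1* was distal. *Hmox2* was named after its values had been seen.

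**Figure D3:**
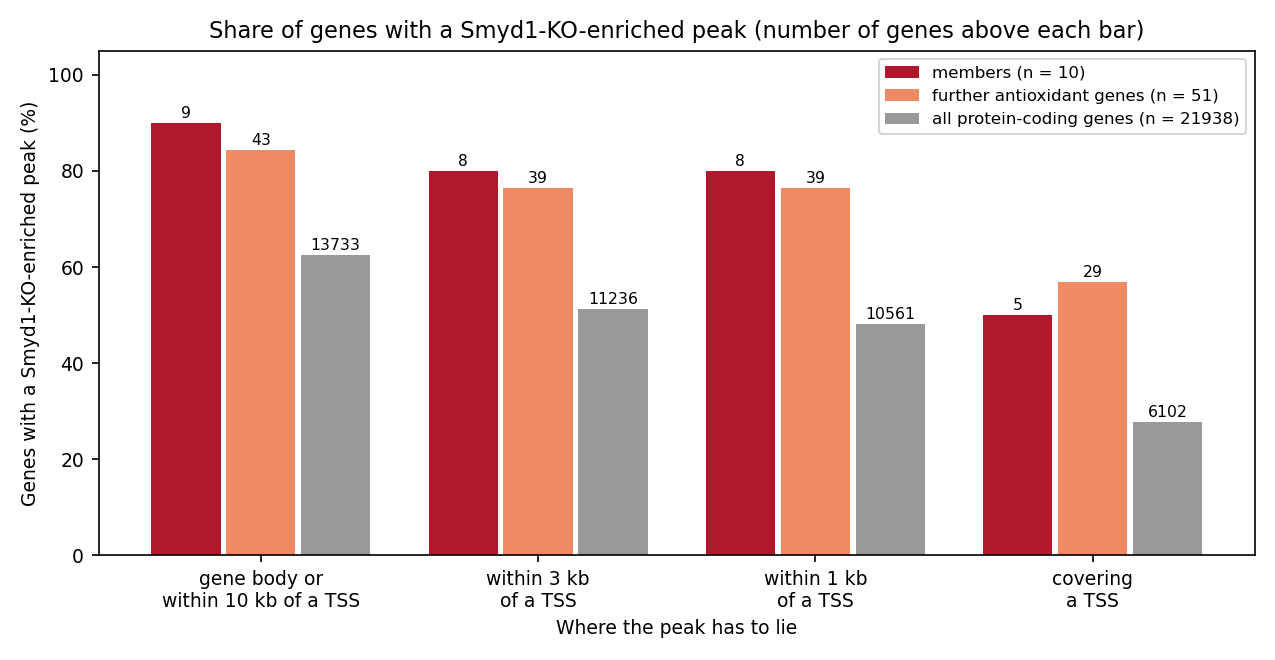
Share of genes, in percent, with a *Smyd1-KO*-enriched peak by where the peak has to lie, for the 10 members, the 51 further antioxidant genes and all 21938 protein-coding genes, with the number of genes above each bar. The share is higher in both antioxidant sets than in all genes under each of the 4 rules (90, 84.3 and 62.6% for the widest rule). These shares take no account of CpG content at the TSS. Within 1 kb, the members had 80%, against a mean of 67.5% in the CpG quintiles they fall in. For the further genes these values were 76.5% and 67.0%.

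CpG content at the TSS moved with these shares. The measure was the ratio of observed to expected CpG within 250 bp of the CpG-richest coding TSS, a choice made after the peak counts had been seen. Quintiles were made of the protein-coding genes for which this ratio could be taken, which leaves out a few. From the lowest ratio to the highest, 3.29, 19.7, 62.1, 76.2 and 79.2% had a peak of the *Smyd1-KO*-enriched list within 1 kb. *Nqo1*, the member with no peak, had the lowest ratio of the 10, 0.335, and was the only member in the second quintile. *Nfe2l2* (0.595), *Cat* (0.603) and *Hmox1* (0.691) were in the third, *Txnrd1* (0.878) and *Sod2* (0.881) in the fourth, and *Keap1* (0.972), *Gclc* (1.03), *Sod1* (1.03) and *Gclm* (1.09) in the highest. The quintiles that the members fall in had a mean share of 67.5%, against 80% in the members themselves. For the 51 further genes these values were 67.0% and 76.5%. The part of CpG content in the counts was not tested. The 13 peaks had a median GC content of 67.1% and a median CpG ratio of 0.740, against 57.7% and 0.416 for the list.

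**Figure D4:**
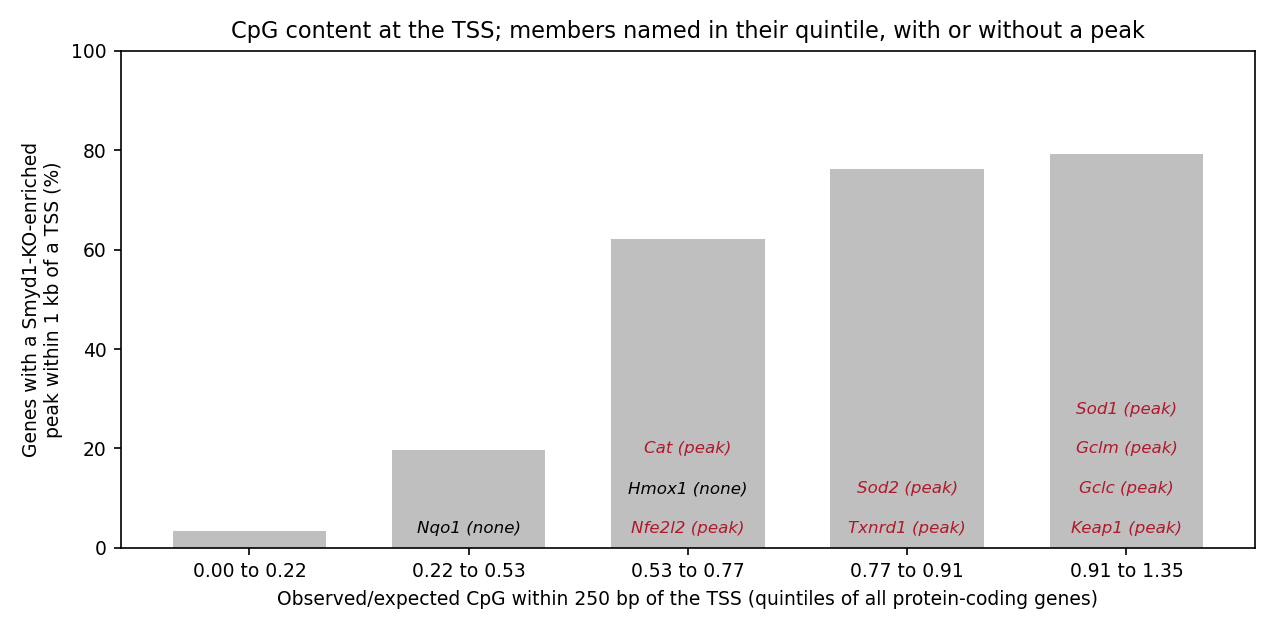
Share of protein-coding genes, in percent, with a TSS no farther than 1 kb from a *Smyd1-KO*-enriched peak, by quintiles of the observed/expected CpG ratio at the TSS, with each member named in its quintile (red with such a peak, black without). The share rises from 3.29 to 79.2%, and the members without a peak within 1 kb are *Nqo1* in the second quintile and *Hmox1* in the third.

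The letters of 5 motifs, chosen with earlier results of these data known, were searched on both strands of the 13 peaks. The ARE core TGACNNNGC was found in 4 peaks, 1 each at *Keap1*, *Hmox1*, *Gclm* and *Txnrd1*, against 8.22% of all *Smyd1-KO*-enriched peaks, with near equal shares within 1 kb of a TSS (8.19%) and beyond (8.24%). The 9 peaks without one were those of *Nfe2l2*, *Gclc*, both superoxide dismutases and *Cat*. The AP-1 site TGAGTCA was found only in the *Hmox1* peak, inside its ARE cores, against 1.75% of peaks within 1 kb of a TSS and 4.61% of those beyond. The SP1 box GGGCGG was found in 6 peaks at 5 genes, *Nfe2l2*, *Gclm*, *Sod1*, *Sod2* and *Cat*, against 51.6% of peaks within 1 kb of a TSS and 8.68% of those beyond. The GATA site AGATAA and the CTCF core AGGGGGCGC were found in 0 of the 13, of which 9 lay within 1 kb of a TSS. The GATA site was in 2.63% of all *Smyd1-KO*-enriched peaks within 1 kb and 14.5% of those beyond, and the CTCF core in 1.80% and 1.26%. In RefSeq promoters of GRCm38, 300 bp from 250 bp before a start to 50 bp after it, 8 of the 10 genes were searched, with 10 promoters, and those of *Hmox1* and *Gclc* were not analysed here. The ARE core was in 4 of these 10, those of *Nfe2l2*, *Gclm*, *Txnrd1* and *Sod1*, against 12.4% of 32851 promoters. For *Gclm* and *Txnrd1* these are the same elements as in their peaks, while those of *Nfe2l2* (position -240 from the start) and *Sod1* (position -56) lie outside the peak. The SP1 box was in 8 of the 10, against 35.7% of promoters, the AP-1 site in 0 (5.20%), the GATA site in 1 (11.2%) and the CTCF core in 1 (1.25%).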

How the data were processed

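Per the methods and the submitters' processing notes, the authors aligned reads to mm10 with BWA-MEM, called peaks with HOMER 4.10.3 on the combined libraries of each genotype, kept peaks with at least a 2-fold difference and annotated them with ChIPseeker 1.20.0. All libraries were to be sequenced to the same depth. Library totals, duplicate handling and the Tn5 offset are not given in the sources used here, and each could change which peaks are listed. The deposited value of a peak is a signal, read here as the tags counted by the authors in its 149 bp in the pooled libraries, although many values are not whole numbers. How scores were scaled between genotypes is not stated, so scores were compared only within a list. The score ranges of both lists are given above as a description and are not set against each other.

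Peaks were joined to GENCODE M21 genes by their nearer edge to a TSS (0 where covered), with coordinates counted from 1 on mm10, which has the GRCm38 sequence. Python 3.11.15, numpy 2.4.6, pandas 2.3.3, pysam 0.24.0 and matplotlib 3.10.9 were used, and the join was tested on simulated peaks. The percentage below a peak is the share of peaks with a lower score. The 36-base words were counted on both strands of 21 chromosomes. Every member was named with every peak, and of the further genes those with the highest promoter score or no peak in their group. The members, lists and motifs were chosen with earlier results of these data known. No test was run, because each genotype has 1 pooled list. Alternatives to the windows, the TSS set, the assignment, the merging of peaks and the score were recomputed.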

Additional observations from a re-analysis of the deposited data

How the results depend on the processing

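No paired analysis was possible because each list pools the libraries of a genotype, and leaving out a replicate was not possible for the same reason. Of 42 alternative values, 39 stayed within 1.5 times the value reported, or within the spread of the scores for the median, and 3 moved. The 13 peaks became 8 with the gene body alone and 21 with the gene body or 25 kb of a TSS, where all 10 genes had a peak. The 8 genes with a peak within 1 kb of a TSS became 5 where the peak had to cover it. Assigning each peak to the nearest protein-coding TSS left 11 peaks at 9 genes. The 9 genes with a peak became 6 with the gene body alone, which the 1.5 rule counted as unchanged. The count of WT-enriched peaks was 0 under each of the 8 alternatives tried for it. These 8 are among the 39. No WT-enriched peak lay nearer than 4.28 Mb to a member, so none of the windows could reach one. Leaving out peaks with over 10% repeated words (12 peaks left) and counting the first coordinate from 1 (13 peaks) were chosen after seeing the data. The depth of each library and the score of peaks under the 2-fold rule are unknown here, so the absence of a listed peak is not the absence of open chromatin.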

Other observations

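Beyond the 10 kb window, 8 more *Smyd1-KO*-enriched peaks lay 10 to 25 kb from a TSS of a member. Of these, 3 covered a TSS of another gene: that of *Gm16754* near *Keap1* (159 tags), of *Nob1* near *Nqo1* (598.5 tags) and of *Wtap* near *Sod2* (653 tags). A further 3 lay within 1 kb of one, at *Dnttip2* near *Gclm* (500.5 tags), *Mcm5* near *Hmox1* (209.5 tags) and *Gm49704* near *Sod1* (354 tags). The other 2 lay farther from any TSS. One was 21852 bp upstream of *Hmox1* (156 tags), beyond the ARE-bearing peak, and the other was 14650 bp downstream of the nearest *Txnrd1* TSS (167 tags), the only 1 of the 8 whose nearest TSS was that of the member.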
